A study of Homo sapiens with 6 samples.

Results

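Intergenic R-loops that have no coding gene ending shortly before them are described here. They are the spKAS-seq peaks on chromosomes 1 to 22 and X whose midpoint lies outside every GENCODE gene record of any type and is not within 10000 bp downstream of the 3′ end of a protein-coding gene on the same strand. The rule used only positions and annotation. It took 2500 of the 21316 peaks in all, 1199 from untreated cells and 1301 from treated cells. Joined where same-strand peaks overlap, they made 1682 distinct loci, of which 816 held peaks of both conditions, 383 held untreated peaks only and 483 held treated peaks only.

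An R-loop is a stretch of chromatin in which RNA pairs with one DNA strand and leaves the other strand single. N3-kethoxal reacts with unpaired guanine, so that strand-specific kethoxal-assisted sequencing (spKAS-seq) can mark the displaced strand. R-loops form where RNA polymerases are active. Outside annotated genes, known sources of such transcription are the RNAs that leave promoters in the reverse direction, small RNA genes made by RNA polymerase III, and mobile elements with their own promoters.

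The cells were HEK293T, a line derived from human embryonic kidney, wild type in genotype. One group had no treatment. The other was grown for 3 h with 10 μM N2-heptynyl-dG, a nucleoside whose guanine carries an alkyl chain on the minor-groove side and which cells build into their DNA. Cells of both groups were then exposed to 5 mM N3-kethoxal for 10 min. There were 2 samples per group, and 1 deposited peak list per group entered the analysis. A list holds chromosome, start, end and strand of each peak, without height or score, so the depth behind a peak is unknown, and a peak is either listed or not. With 1 list per condition no test between conditions could be made. Intervals are 95% intervals over peaks and cover counting error only, and a difference between the lists cannot be told apart from a difference between preparations.

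The strand given for a peak followed the direction of transcription. Of intergenic peaks downstream of coding genes on 1 strand only, 1607 lay after a gene on the peak's own strand and 129 after a gene on the other strand in the untreated list, and 1599 and 134 in the treated list. The peak strand is therefore read below as the strand with the sequence of the RNA. In both lists these intergenic R-loops were 11.8% of the peaks on chromosomes 1 to 22 and X (11.2% to 12.4% in the untreated list).

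The places these peaks took fell into a few recognisable kinds, and the DNA of examples is shown before the values. Most lay just before a gene and ran away from it on the opposite strand. The examples are both extremes of base composition among such peaks found in both lists next to a coding gene, read on the peak strand of GRCh37 from 5′ to 3′, as the 120 bases with the strongest imbalance. ADRB1 encodes the beta-1 adrenergic receptor, and capitals there mark runs of 3 or more C. CUL3 encodes a cullin of ubiquitin ligases, and capitals there mark runs of 3 or more G. The first peak midpoint lay 226 bp and the second 503 bp from the gene start.
chr10:115803221-115803340, minus strand, by ADRB1: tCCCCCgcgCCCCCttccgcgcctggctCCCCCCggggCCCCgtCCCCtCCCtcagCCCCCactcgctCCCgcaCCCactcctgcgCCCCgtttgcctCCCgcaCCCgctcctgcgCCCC
chr2:225450449-225450568, plus strand, by CUL3: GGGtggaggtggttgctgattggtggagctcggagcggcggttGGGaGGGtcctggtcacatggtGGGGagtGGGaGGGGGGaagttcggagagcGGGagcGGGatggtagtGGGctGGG

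A smaller group held the B box, an internal promoter element by which RNA polymerase III recognises tRNA genes. The letters searched were GGTTCGA, then any 2 bases, then CC, shown in capitals for 4 of the widest such peaks found in both lists that were not mainly repeated sequence. Another peak, by RFX1 on chromosome 19, was as wide as the last 3 and was left out by chromosome order.
chr6:28757543-28757633, minus strand: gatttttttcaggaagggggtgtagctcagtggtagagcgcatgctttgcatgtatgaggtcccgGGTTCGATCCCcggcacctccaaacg
chr5:180633853-180633943, plus strand: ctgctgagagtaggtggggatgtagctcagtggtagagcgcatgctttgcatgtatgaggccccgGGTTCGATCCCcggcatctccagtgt
chr6:28785008-28785098, minus strand: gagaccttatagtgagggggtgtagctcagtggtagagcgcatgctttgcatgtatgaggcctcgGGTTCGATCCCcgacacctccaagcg
chr17:36908030-36908120, minus strand: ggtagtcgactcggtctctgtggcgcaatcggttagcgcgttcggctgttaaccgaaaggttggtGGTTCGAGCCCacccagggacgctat

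The location of the intergenic R-loops was set out by the nearest gene end. In 636 of 1199 untreated peaks (53.0%, 50.2% to 55.9%) and 679 of 1301 treated peaks (52.2%, 49.5% to 54.9%) it was the start of a gene on the opposite strand within 1000 bp. Sequence of this kind made up only 1.25% of the strand length open to these peaks, so that the peaks stood there at 24.9 per Mb of strand in the untreated list and 26.6 in the treated list. Within 1000 bp of a same-strand start the densities were 5.31 and 6.11 per Mb. By the rule, peaks with midpoints past a gene start were not counted, so these are densities before the start only. Beyond 50000 bp from any gene they were 0.0365 and 0.0384 per Mb. Every opposite-strand start counted, nearest or not, 59.2% and 59.3% of the peaks had one within 1000 bp.

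**Figure D1:**
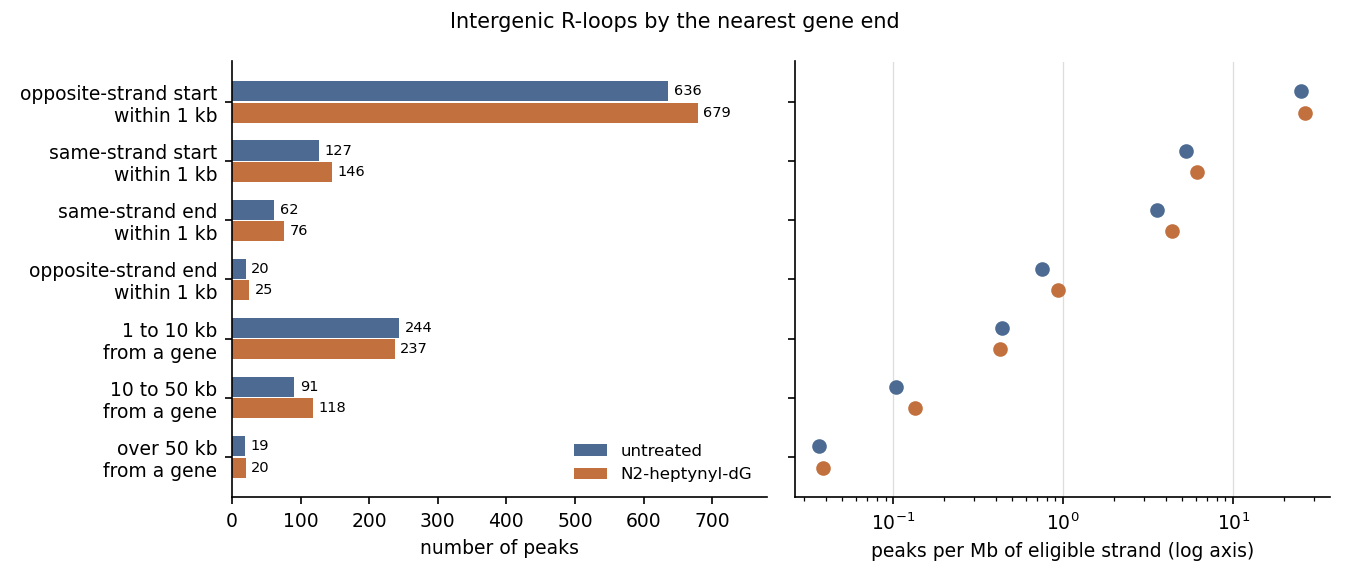
Intergenic R-loops by the kind of nearest gene end and the distance to it, for the untreated and the N2-heptynyl-dG list. The left panel gives the number of peaks (bars from 0), the right panel the number per Mb of eligible strand on a log axis. Both lists have their highest density next to opposite-strand starts, at 24.9 and 26.6 per Mb.

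Peaks of the opposite-strand class sat at a narrow range of distances. The median distance from midpoint to start was 326 bp in either list, with quartiles of 229 and 448 bp in the untreated and 235 and 444 bp in the treated list. The nearest start belonged to a protein-coding gene for 597 untreated and 627 treated peaks and to a lncRNA for 26 and 39. The coding starts were those of 597 and 625 genes, 432 of them in both lists and 790 in either. The peak itself reached over the gene start in 239 of the 597 and 258 of the 627 peaks. Peaks with a same-strand start nearest within 1000 bp, numbering 127 and 146, had medians of 44 and 48 bp. Their midpoints thus fell just before the annotated start of the gene they run into. The rule itself favours this, because a peak with its midpoint past the start counts as in a gene record. The 2 sets of distances are therefore not like for like.

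**Figure D2:**
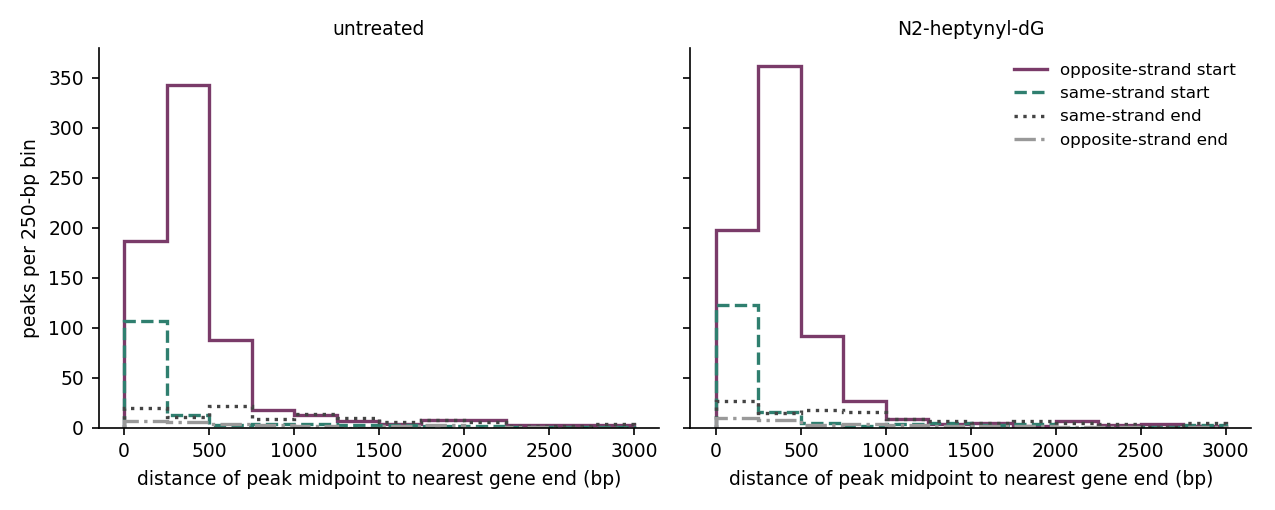
Number of intergenic R-loops per 250-bp bin of distance from peak midpoint to the nearest gene end, one line per kind of gene end, for both lists. The opposite-strand start line is highest between 250 and 500 bp, where it holds 343 untreated peaks.

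Many of these upstream peaks had no counterpart on the gene's own strand. Of the peaks at coding starts, 27.8% (24.4% to 31.5%) of the untreated and 30.6% (27.1% to 34.3%) of the treated ones had a peak of the same list on the gene's strand within 1000 bp of the start. Over all intergenic R-loops, 225 untreated (18.8%, 16.7% to 21.1%) and 262 treated (20.1%, 18.0% to 22.4%) had an opposite-strand peak within 1000 bp. Of these pairs 221 and 258 were divergent, the minus-strand peak lying to the left, and 4 in each list were convergent. The partner had its midpoint in a gene record in 188 and 218 pairs and was itself an intergenic R-loop of the kind described here in 36 and 42 peaks. Peaks after coding genes, in the excluded 10000 bp, had such a partner in 1.00% and 0.790% of cases, and peaks in gene records in 909 of 7079 and 1108 of 7822, where 99.0% and 98.6% of the pairs were likewise divergent.

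The next question was how many of the intergenic R-loops recurred in the other condition. Of the untreated peaks 867 (72.3%, 69.7% to 74.8%) overlapped a treated peak by at least 1 bp, beside 74.8% of all untreated peaks. Of the treated peaks 870 (66.9%) overlapped an untreated one, beside 69.4% of all treated peaks. Peaks in gene records recurred in 74.6% and 67.8%, and peaks after coding genes in 77.4% and 77.6%. The share of the intergenic R-loops minus that of the remaining peaks was -2.85 percentage points in the untreated list (95% Newcombe interval -5.60 to -0.232) and -2.87 points in the treated list (-5.63 to -0.203). With the same strand required it was -3.46 and -3.21 points, with both intervals below 0. At 50% reciprocal overlap it was -0.262 (-3.10 to 2.47) and -0.174 points (-2.99 to 2.57). When a peak within 1000 bp sufficed it was -0.110 (-2.62 to 2.23) and -1.60 points (-4.22 to 0.887). Width moved with the difference at 1 bp. Of peaks 500 bp wide, 64.4% of the untreated intergenic ones recurred (60.6% to 67.9%) and 64.4% of the other untreated peaks, and in the treated list 56.1% and 54.9%. The intervals of the difference at this width, -4.08 to 3.93 points untreated and -2.68 to 5.02 points treated, included 0. At 750 bp the intergenic peaks had the higher shares, 79.2% against 74.5% untreated (difference 4.76 points, -0.439 to 9.34) and 78.5% against 69.8% treated (8.70 points, 3.55 to 13.2). At 1000 bp and above, the intervals of the difference included 0 in both lists.

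Where they recurred, the intergenic R-loops often kept their borders. Start, end and strand were the same in both lists for 479 peaks, which is 39.9% of the untreated and 36.8% of the treated ones, beside 32.2% of all untreated and 29.7% of all treated peaks. In gene records the share was 34.9% and 31.6%, nearer to the intergenic one, and after coding genes it was 17.2% in either list. The share moved with width. Among peaks of 500 bp the share was 44.8% (41.0% to 48.6%) against 39.8% (38.2% to 41.4%) for the other untreated peaks, a difference of 4.97 points (0.849 to 9.13). In the treated list the difference was 2.27 points (-1.44 to 6.07). At 750 bp it was 4.89 points (-0.732 to 10.8) untreated and 9.49 points (4.07 to 15.2) treated. Among peaks over 1000 bp the shares were 33.3% against 20.6% untreated and 38.1% against 21.8% treated, differences of 12.7 points (4.96 to 21.4) and 16.3 points (7.67 to 25.7). This class has no upper limit, and its other peaks include those after coding genes, so widths were not matched in it. Of 816 peaks matched one to one on the same strand, 136 were wider in the treated list, 175 were wider in the untreated list and 505 had equal widths. Wider peaks were thus no more frequent on the treated side.

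Recurrence was lower at 10000 to 50000 bp from genes than beside them. Next to opposite-strand starts, 74.5% (71.0% to 77.8%) of untreated and 68.5% (64.9% to 71.9%) of treated peaks were found in the other list. Between 10000 and 50000 bp from any gene record the shares were 61.5% (51.3% to 70.9%) of 91 and 50% (41.1% to 58.9%) of 118. The differences, chosen after the values were seen, were 13.0 points (3.01 to 23.8) in the untreated and 18.5 points (8.91 to 28.0) in the treated list. In some peaks over 50% of the 31-base words occurred more than once in the genome. Without these, the shares were 69.2% (55.7% to 80.1%) against 75.4% (71.8% to 78.7%) by opposite-strand starts untreated. In the treated list they were 51.4% (40.1% to 62.6%) against 68.4% (64.7% to 71.9%). The part of repeated sequence in the difference was not tested. Of the peaks between 10000 and 50000 bp, 56 untreated and 59 treated ones had a match, so most of the surplus of treated peaks there lay in peaks without one. Beyond 50000 bp, 10 of 19 untreated and 10 of 20 treated peaks were found in the other list.

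**Figure D3:**
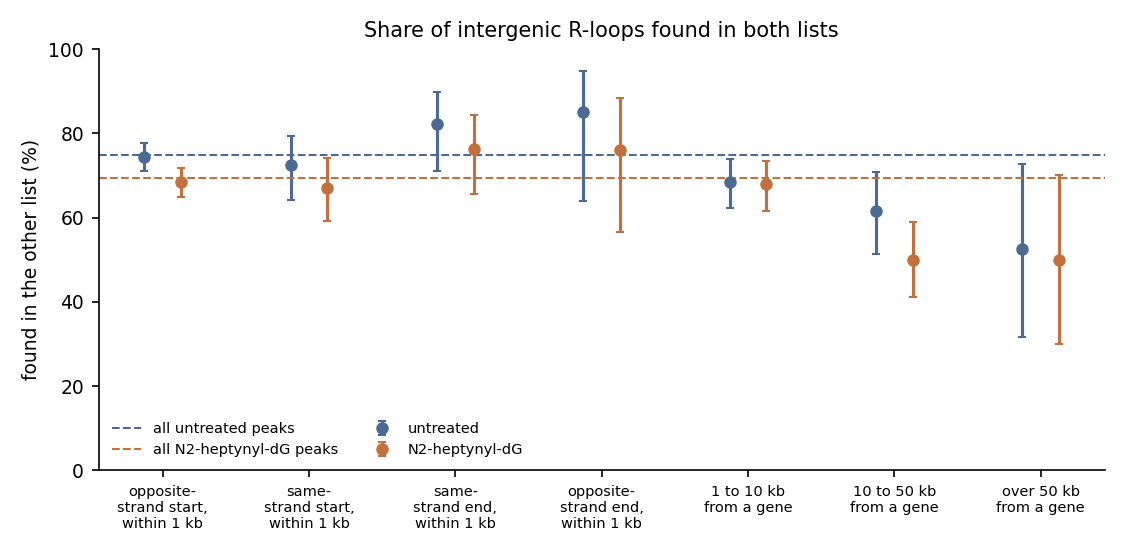
Share of intergenic R-loops found in the other list, by nearest gene end and distance, with 95% Wilson intervals over peaks. Dashed lines give the share over all peaks of each list, 74.8% and 69.4%, and the points at 10 to 50 kb, 61.5% and 50%, lie below them.

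Most of the intergenic R-loops were narrow. Their mean width was 731 bp in the untreated and 698 bp in the treated list, and 54.0% and 58.4% had the smallest width of 500 bp. The mean was 823 and 801 bp for peaks in gene records, of which 45.9% and 46.2% were 500 bp wide, and 1236 and 1201 bp after coding genes. Only 31 untreated and 26 treated intergenic peaks reached 2000 bp, and all of these were found in both lists. This was not particular to them. Of peaks that wide in gene records, 316 of 318 untreated and 301 of 305 treated ones were found in both lists. After coding genes the counts were 291 of 293 and 282 of 284. In 96.7% of untreated and 96.4% of treated intergenic R-loops no peak of the same strand and list lay within 5000 bp upstream. The rule itself favours this, because it leaves out intergenic peaks within 10000 bp downstream of same-strand coding genes. The same share was not counted over other peaks.

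The widest loci found in both lists lay by small RNA and noncoding genes or a coding gene's far end. The first, on the minus strand at chr19:51297182-51300181, was 3000 bp wide untreated and 3250 bp treated, with its midpoint 206 bp past the end of ACP4 on the opposite strand. The second, chr12:120728296-120731295, was 3000 bp in both and had its midpoint 90 bp before the start of RNU4-2, which encodes U4 RNA of the spliceosome. The third, at chr1:9204652-9207401, was 2750 bp untreated and 2250 bp treated and followed MIR34AHG, the host transcript of the miRNA miR-34a, by 2043 bp. The fourth, chr1:120690958-120693207, followed the noncoding record RP6-42F4.1 by 1237 bp, with 2250 bp untreated and 2750 bp treated, and 64.3% of its 31-base words occurred more than once in the genome.

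The widest peaks without a match were smaller. In the untreated list they were chr7:154798312-154800061 (1750 bp), which followed PAXIP1-DT by 1774 bp, chrX:61001-62750 (1750 bp), at the tip of the X chromosome, and chr7:158388312-158389811 (1500 bp), by MIR5707. In the treated list 3 peaks of 1250 bp led, each after a lncRNA. They were chr1:77690674-77691923 beyond ENSG00000289212, chr7:149234562-149235811 beyond ZNF767P and chr7:156809312-156810561, 817 bp beyond MNX1-AS1. MNX1, the neighbour of the last, encodes a homeobox factor of motor neurons and pancreas.

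Peaks just past the end of a same-strand gene could by the rule follow only noncoding genes. There were 62 untreated and 76 treated ones within 1000 bp, with means of 1160 and 1071 bp, and they followed lncRNAs in 36 and 43 cases. The group after snRNA genes was wide, with a mean of 1516 bp in each list. Of intergenic peaks over 1000 bp, 92.2% of untreated and 93.8% of treated ones recurred, and of other peaks that wide 92.6% and 93.9%. The snRNA group had 16 peaks in each list, and all 16 were found in the other list. Of these, 12 followed U1 genes, variants or pseudogenes, among them RNVU1-7, RNVU1-18 and RNU1-27P, and were 750 to 2250 bp wide, while 2 followed the U5 genes RNU5B-1 and RNU5D-1 with 1750 and 2000 bp. The remaining peaks of the group followed RNU2-63P and RNU6-2. U1 and U5 RNAs are made by RNA polymerase II and end at a signal of their own, without the usual polyadenylation. After 5S rRNA genes, which polymerase III transcribes, stood 1 untreated and 4 treated peaks, those of RNA5S1, RNA5S6, RNA5S9 and RNA5S17, and only that of RNA5S1 was found in both lists. These U1 and 5S genes are repeated in the genome, and a read from one copy can be placed at another.

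Base composition set these loci apart from their surroundings. The median GC content was 55.6% (55.0% to 56.4%) in the untreated and 56.8% (56.3% to 57.4%) in the treated list, against 43.8% and 43.4% in windows of the same length centred 5000 bp upstream. The ratio of observed to expected CpG was 0.678 and 0.695, against 0.236 and 0.234 upstream. With GC over 50% and a ratio over 0.6, 54.9% and 58.6% of the peaks looked like CpG islands, the unmethylated stretches found at many promoters. Peaks in gene records had nearly the same shares, 55.9% and 59.3%, so this was not particular to intergenic R-loops. Peaks after coding genes had 8.78% and 9.80%. By class of intergenic R-loops the share was 71.2% and 72.3% next to opposite-strand starts and 25.0% and 26.6% between 1000 and 10000 bp from a gene.

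The R-loop strand did not carry a surplus of guanine. GC skew, (G - C)/(G + C) counted along the peak strand, had a median of -0.0191 (-0.0256 to -0.0132) in the untreated and -0.0338 (-0.0407 to -0.0278) in the treated list. At peaks after coding genes it was 0.00858 and -0.00277, and at peaks in gene records 0 and -0.0130. A G-quadruplex motif, 4 runs of at least 3 G with loops of 1 to 7 bases, was present on the peak strand in 15.3% (13.4% to 17.5%) of untreated and 16.9% (15.0% to 19.0%) of treated peaks. On the other strand of the same peaks it was present in 23.2% (20.9% to 25.7%) and 24.5% (22.3% to 26.9%). Upstream windows held it in 4.67% and 4.84% on the peak strand. Peaks in gene records leaned the same way, with 20.0% and 21.3% on the peak strand and 25.9% and 29.4% on the other, so this was not particular to intergenic R-loops.

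**Figure D4:**
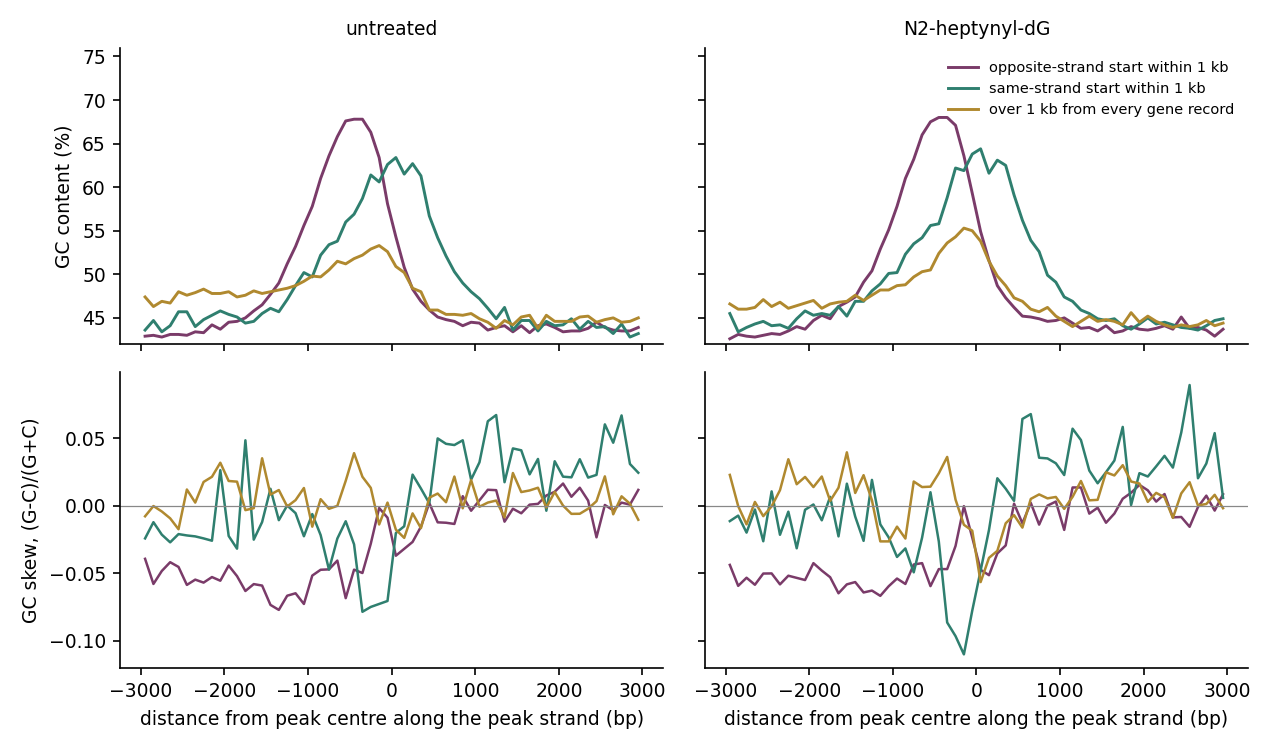
Mean GC content (top, %) and GC skew (bottom) against distance from the peak centre along the peak strand, in 100-bp steps, for 3 groups of intergenic R-loops in each list. Next to opposite-strand starts GC is highest before the centre, on the side of the gene, with 67.8% at -450 bp in the untreated and 68.0% at -350 bp in the treated list.

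The composition of peaks without a match differed between the lists. Treated peaks without an untreated match had a median GC content of 58.6% (57.4% to 59.4%) and a median skew of -0.0400 (-0.0476 to -0.0290). For untreated peaks without a treated match the values were 54.2% (53.2% to 55.6%) and -0.00372 (-0.0189 to 0.00665). Matched peaks were at 56.1% in either list. The same order was seen in gene records, with 59.9% against 55.2%, so it was not particular to intergenic R-loops. Treatment and preparation cannot be told apart as its source.

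The lowest skews among peaks found in both lists, all with more C than G on the peak strand, were -0.385 by ADRB1 (chr10:115803149-115803648), -0.357 with its midpoint 1807 bp before ARHGAP39 (chr8:145912788-145913287) and -0.336 at chr7:149333062-149333561, which lay 11469 bp before ZNF767P. At ADRB1 the peak strand had no G-quadruplex motif and the other strand had 2.

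Repeated sequence was most frequent far from genes. In 14.5% (12.6% to 16.6%) of untreated and 14.7% (12.9% to 16.7%) of treated intergenic R-loops over 50% of the 31-base words occurred more than once in the genome, against 8.69% and 8.32% of peaks in gene records, differences of 5.82 points (3.83 to 8.02) and 6.36 points (4.43 to 8.47). Next to opposite-strand starts the shares were 5.50% and 4.86%, between 10000 and 50000 bp they were 42.9% and 39.0%, and beyond 50000 bp they were 14 of 19 and 12 of 20. Peaks with over 50% repeated words recurred less often than the other intergenic ones. The shares were 62.1% (54.7% to 68.9%) against 74.0% (71.3% to 76.6%) of untreated and 57.6% (50.5% to 64.4%) against 68.5% (65.7% to 71.1%) of treated peaks. The differences were -12.0 points (-19.8 to -4.57) and -10.9 points (-18.5 to -3.53). In gene records the shares were 66.7% against 75.3% and 63.3% against 68.3%. After coding genes they were 71.2% against 77.8% and 72.8% against 78.0%, so the direction was not particular to intergenic R-loops. Where a read fits several copies, Bowtie2 by default reports 1 of them, so the copy that a peak names is uncertain.

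Repeated peaks that shared at least 100 words with each other were joined into families, a step chosen after the data had been seen. The largest family had 57 peaks, 24 untreated on 17 chromosomes and 33 treated on 13, and the next family had 12. It supplied 9 of the 19 untreated and 8 of the 20 treated peaks that lay over 50000 bp from a gene. Its median GC content was 58.6% and 58.2%, and no peak of it held a G-quadruplex motif on either strand. In the other list 11 of the 24 (45.8%, 27.9% to 64.9%) and 9 of the 33 (27.3%, 15.1% to 44.2%) were found.

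The loci farthest from any gene were mostly of this family. Among those found in both lists, the 5 farthest lay 152981 bp (chr10:57659399-57659898), 123238 bp (chr1:163614963-163615712), 122849 bp (chr7:85969648-85970147), 99416 bp (chr1:102561648-102562147) and 99353 bp (chr14:48370382-48371131) from the nearest record. All but the locus on chromosome 1 at 102561648 belonged to the family. That locus was of another make, with a GC content of 37.4% and only 0.213% repeated words, and its nearest gene was OLFM3, which encodes the secreted protein olfactomedin-3. The farthest peaks without a match were chr1:105206861-105207360 in the untreated list, 333917 bp from a gene, and chr6:142136077-142136576 in the treated list, 178687 bp from one. Both again belonged to the largest family.

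**Figure D5:**
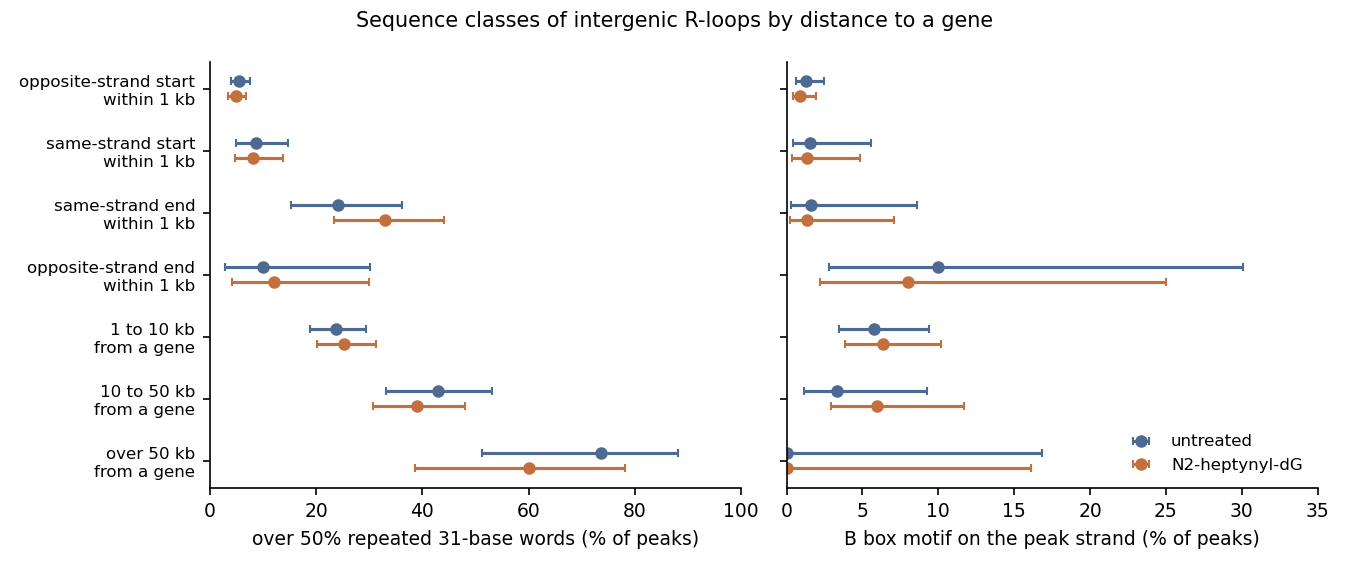
Share of intergenic R-loops with over 50% repeated 31-base words (left) and with a B box motif on the peak strand (right), by nearest gene end and distance, with 95% Wilson intervals over peaks. Repeated sequence reaches 73.7% in the untreated list beyond 50 kb. The B box is found in 5.74% and 6.33% of peaks at 1 to 10 kb and in 2 of 20 and 2 of 25 by opposite-strand ends. Beyond 50 kb it is in none of 19 and 20 peaks.

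The B box marked a group of recurrent loci at middle distance. It stood on the peak strand in 30 untreated (2.50%, 1.76% to 3.55%) and 33 treated (2.54%, 1.81% to 3.54%) intergenic R-loops, and on the other strand in 3 and 5. Both strands of the genome were searched, and of 500-bp tiles, each strand counted apart, 0.0554% held the letters. In gene records 0.706% and 0.614% of peaks held it on the peak strand, and after coding genes 0.212% and 0.211%. The differences to gene records were 1.80 points (1.02 to 2.86) and 1.92 points (1.17 to 2.94). Of the intergenic peaks with the motif, 27 of 30 untreated (90.0%, 74.4% to 96.5%) and 26 of 33 treated (78.8%, 62.2% to 89.3%) were found in the other list. Against the other intergenic peaks this was 18.1 points more (2.32 to 25.2) in the untreated list and 12.2 points (-4.51 to 23.1), within counting error, in the treated list. Width was not matched here. The median width of peaks with the motif was 750 bp in either list, against 500 bp over all intergenic R-loops. Peaks with the motif in gene records recurred about as often, 45 of 50 untreated and 43 of 48 treated, so this was not particular to intergenic R-loops. Of the gene records used here, 0 were typed as nuclear tRNA genes, and a record with a tRNA name among those nearest to these peaks, TRNAI6, is typed as a miRNA, so a peak over a tRNA gene can count as intergenic.

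The short arm of chromosome 6 carries a large cluster of tRNA genes, and 15 of the 30 untreated and 20 of the 33 treated peaks with a B box were on that chromosome. Not all of them lay in the cluster, since the peak at chr6:126101082-126101831, found in both lists, was on the long arm. Intergenic R-loops on chromosome 6 numbered 80 and 94 in all, of which 33 and 36 lay between 26 and 29 Mb. SCAND3 was nearest to 7 untreated and 9 treated intergenic R-loops, more than any other coding gene, TRIM27 to 6 and 6, ZNF322 to 7 and 5 and ZNF184 to 6 and 5. These 4 genes, of zinc finger and related families, lay 5262 to 158604 bp from their peaks. The printed locus of 91 bases at chr6:28757543-28757633 lay in a peak of 1250 bp, chr6:28757251-28758500, with the same borders in both lists.

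The remaining coding genes with most intergenic R-loops nearest to them were on chromosomes 1 and 16. They were H3-7 (6 untreated and 6 treated), whose peaks lay among U1 gene variants of chromosome 1, AL355149.2 (5 and 4), RNF187 (2 and 5), by the 5S rRNA genes, and ACBD3, FBXO28 and HAPSTR1 with 3 and 3 each. HAPSTR1 peaks were all on the minus strand, at 500 to 38500 bp from the gene, and all 6 were found in both lists.

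Chains of intergenic R-loops, with peaks left out by the rule not linked, were short and few. Linked on 1 strand over gaps of up to 5000 bp, the pooled peaks made 1645 loci, and 29 of these had over 1 peak in a list. The longest spanned 7500 bp (chr1:148241323-148248822, plus strand) and held 1 untreated and 2 treated peaks by NBPF20, a gene of a duplicated family. The next were chr15:82818383-82825132 with 2 and 2 peaks by a duplicated GOLGA6L9 region, chr6:58141501-58148000 with 1 and 2, chr14:21125151-21131650 with 2 and 2 and chr1:224204511-224210760 with 2 and 2. The chain on chromosome 14, between OR6S1 and a Y_RNA gene, had few repeated words and B box letters in both of its peaks in each list.

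Groups of coding genes near these peaks were counted beside all 20090 coding genes, of which 868 (4.32%) had an untreated and 931 (4.63%) a treated intergenic R-loop as nearest gene within 10000 bp, 627 in both. ZNF zinc finger genes had 24 (4.66%) and 25 (4.85%) of 515, near the share of all genes. Developmental transcription factors had 5 and 8 of 184, and FOXF1, FOXF2, LHX4 and TBX18 were in both lists. Those names were taken by prefix, which also caught GATAD2A and PAXIP1, proteins of chromatin and DNA damage signalling. At FOXF1, a factor of lung and gut mesenchyme, the peak was antisense before the start, 1250 bp wide untreated and 1000 bp treated. Of 23 immediate early genes JUND had an untreated peak, and EGR1 and IER2 had treated peaks. The EGR1 peak (chr5:137800772-137801521) had its midpoint 21 bp before the start, and an untreated peak of 1250 bp overlapped it whose midpoint lay inside the gene record. Cytosolic ribosomal proteins had 2 of 86 in each list, RPL23 and RPS27, and heat shock genes 2 of 76, DNAJC1 and HSPA13, the same in both lists. Among 11 nucleotide excision repair genes ERCC2 had an untreated peak, 6 bp before its start, without a treated match. ID1 to ID4, the 69 histone genes and the 8 translesion synthesis genes had none in either list, and the small groups among them could hardly have shown a difference.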

How the data were processed

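HEK293T genomic DNA was analysed by spKAS-seq in untreated and N2-heptynyl-dG-treated cells. Per the methods and labels, the authors used Trim Galore for trimming, Bowtie2 with default settings for alignment (hg19) and Picard against duplicates. R-loops came from a published spKAS-seq procedure with 2 replicates. Versions are not given in the sources used here. The deposited values are positions only: chromosome, start, end and strand of each peak, in a BED list per condition with no count, score or p-value. Each list is attached to replicate 1, and nothing in it says that it stands for both replicates. Other samples and inputs were not used here.

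Peaks were classified by midpoint with GENCODE release 44 mapped to GRCh37, which is the same assembly as hg19, and 126 peaks on other contigs were left out. All but 4 of the peaks described had widths that are multiples of 250 bp. Eligible strand length was counted on a grid of 100 bp. Sequence was read from GRCh37. Shares carry 95% Wilson intervals, differences of shares Newcombe intervals and medians order-statistic intervals. Regions named were the widest, the farthest from genes, the longest chains and the lowest GC skews. Genes named were those nearest to them, the 10 coding genes with most peaks nearest, and gene group members. The members and lists were chosen with earlier results of these data known. The B box, the repeat families and the peaks printed as sequences were chosen after their values were seen. Differences of shares by width, distance, repeats and B box were added then too. Results that rest on certain sequences, among them the highest GC skews and motif counts, are not reported here. Functions were tested on simulated peaks, and overlaps were checked against bedtools 2.31.1. Python 3.11.15, pandas 2.3.3, pysam 0.24.0 and SciPy 1.17.1 were used.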

Additional observations from a re-analysis of the deposited data

How the results depend on the processing

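Values are given as untreated and treated. Over 16 results (8 measures in each list), 146 values were recomputed under 16 alternatives and 1 added after seeing the data. The reported value's 95% interval held 64 of them, where a number of peaks counts as held if within 1.5 times of it. The other 82 lay outside, and no sign reversed.

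The choice of members moved most values. With no base of the peak allowed inside a gene record there were 777 and 829 peaks (7.64% and 7.52% of their lists). The share found in the other list was then 69.1% in the untreated list, an opposite-strand start lay within 1000 bp in 49.7% and 49.3%, G-quadruplex motifs stood in 13.3% and 14.1%, median GC content was 53.7% and 55.0% and median skew -0.0114 and -0.0272. A window after coding genes of 5000 bp gave 13.0% and 13.1% of the lists and opposite-strand starts in 55.7% and 55.3%. A window of 50000 bp gave 8.75% and 8.76% of the lists. With the window of 10000 bp set after same-strand genes of all types in place of coding genes, the shares were 9.27% and 9.26%, with opposite-strand starts in 66.3% and 64.8%, opposite-strand peaks in 21.5% and 22.9% and a treated median GC content of 57.5%. With coding records only there were 2128 and 2316 peaks (20.9% and 21.0%), opposite-strand starts in 54.4% and 54.1% and median skews of -0.0118 and -0.0271.

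Peaks of 750 bp or more numbered 551 and 540 (9.23% and 8.54% of such peaks), of which 81.7% and 82.0% were found in the other list. They had opposite-strand starts in 50.3% and 53.3%, G-quadruplex motifs in 18.5% and 19.1%, opposite-strand peaks in 10.9% and 12.6% and a median GC content of 54.4% and 55.3%. Over 5000 bp from every gene record were 185 and 214 peaks (1.82% and 1.94%), of which 63.8% and 54.7% were found in the other list. They had no opposite-strand start within 1000 bp by construction (0 and 0), G-quadruplex motifs in 8.65% and 11.2%, opposite-strand peaks in 4.32% and 5.61%, a median GC content of 51.6% and 53.3% and a median skew of -0.0314 and -0.0429. Without peaks of over 50% repeated words, an alternative chosen after seeing the data, the list shares were 10.1% and 10.1% and opposite-strand starts stood in 65.7% and 66.4%.

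Definitions moved the rest. The share found in the other list was 69.1% and 63.8% at 50% reciprocal overlap and 79.6% and 73.3% when a peak within 1000 bp sufficed. G-quadruplex motifs stood in 26.7% and 28.6% with loops of 1 to 12 bases and in 2.34% and 3.15% with runs of at least 4 G. Opposite-strand starts lay within 500 bp of 48.5% and 47.5% and, in the untreated list, within 2000 bp of 63.1%. Opposite-strand peaks overlapped 14.8% and 15.4% (0 bp apart) and lay within 5000 bp of 22.7% in the treated list. The causes of these moves were not tested.

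No paired analysis was possible because a single list of peaks represents either condition. No replicate was left out for that reason, and no value has an error between cultures. The lists carry no depth, so how near a missing peak was to the authors' threshold is unknown.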
